A study of Homo sapiens with 32 samples.

Results

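The measurement described here is a difference of differences: how far the transcriptional response to KDM1A inhibitors in the acute myeloid leukaemia line Kasumi-1 departed from the response of SKNO-1. All 32 RNA sequencing libraries of the series entered it, 16 from each line. The response of a line at a time is the mean of its RN-1 and GSK690 libraries minus the mean of its DMSO and GSK690* libraries on the log2(FPKM + 1) scale, and the line difference is the response in Kasumi-1 minus the response in SKNO-1. A positive value therefore marks the larger response in Kasumi-1, where larger means more positive throughout: a gene that fell in SKNO-1 and held its level in Kasumi-1 also has a positive value. Genes were tested at 24 h and at 72 h separately, and the genes followed are those called at both times with the same sign, 97 of 11882 tested at both.

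Kasumi-1 and SKNO-1 are established human lines, both known for the t(8;21) translocation that makes the RUNX1-RUNX1T1 fusion protein. Each line received 0.1% DMSO as vehicle or 1 µM of RN-1, GSK690 or GSK690*, with 2 biological replicates in each of the 16 groups of line, agent and time. RN-1 is labelled an irreversible inhibitor of KDM1A, GSK690 a reversible one, and GSK690* its inactive isomer. The lines differed in more than their genomes: Kasumi-1 was grown with 20% fetal calf serum, SKNO-1 with 10% serum and 10 ng/mL GM-CSF, a growth factor for myeloid cells. Line and medium cannot be told apart in these data. For SKNO-1 the titles give 72 h at the later time while the treatment protocol gives 4 days, so duration and line may also be mixed there. The labels do not state that replicate 1 of one group belongs with replicate 1 of another. The library names do run consecutively by replicate number within a line and time, except that the prefix changes within SKNO-1 at 72 h. The names of replicate 1 of SKNO-1 at 24 h form a run apart from replicate 2 and from Kasumi-1.

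KDM1A removes methyl groups from lysine 4 of histone H3 and works with the scaffold RCOR1 and with histone deacetylases. The repressors GFI1 and GFI1B bring this complex to their target genes through a short amino-terminal domain. Inhibitors that occupy the catalytic pocket can dislodge KDM1A from those repressors, and genes of mature myeloid cells are known to be derepressed in leukaemia cells that receive them.

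FPKM summed to between 332648 and 395945 per library. The files give FPKM and no reads per gene, so library depth is unknown. The authors' sample table names the opposite line for all 16 libraries of 72 h. The GEO titles were followed. Across genes, 72 h libraries so named correlated with the 24 h libraries at a mean r of 0.974 to 0.986 within a line and 0.848 to 0.870 between lines. Following the authors' table instead would turn the sign of every 72 h difference. Both lines expressed KIT, a receptor of myeloid progenitors, at 223 to 249 FPKM in the Kasumi-1 and 78.7 to 87.3 FPKM in the SKNO-1 controls of 24 h. Of 17 markers of adherent cells, 16 stayed under 1 FPKM in every library of each line. The exception in Kasumi-1 was EPCAM.

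At 24 h the line difference was called for 133 of 11885 genes (1.12%), with limma and a Benjamini-Hochberg adjusted p under 0.05. The response was larger in Kasumi-1 for 87 of them (0.732% of genes tested) and larger in SKNO-1 for 46 (0.387%). At 72 h 413 of 11886 genes (3.47%) were called, 275 larger in Kasumi-1 (2.31%) and 138 larger in SKNO-1 (1.16%). The median difference over all genes was -0.008 at 24 h and 0.001 at 72 h. Of the 133 genes, 131 had the same sign at 72 h, and of the 413 genes, 406 had the same sign at 24 h, against 65.3% of all genes tested at both times. The times share no library, but the spread of each gene was taken from all 32 libraries. With each time fitted alone, 121 genes were called at 24 h and 302 at 72 h. Called at both times with the same sign were then 72 genes, 67 of them among the 97 described next. The 97 genes called at both with the same sign make up 0.816% of the 11882, 61 larger in Kasumi-1 (0.513%) and 36 larger in SKNO-1 (0.303%), and no gene was called at both times with opposite signs. The count at 24 h rested in part on single libraries: it was 81 without the 24 h library of DMSO replicate 1 of SKNO-1, 84 and 87 when the SKNO-1 library left out was replicate 1 of GSK690 or of RN-1, and 86 and 85 when it was replicate 1 or 2 of GSK690 in Kasumi-1.

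In SKNO-1 at 24 h the replicate 1 inhibitor libraries stood well above replicate 2 for many genes with a larger SKNO-1 response: over the 36 such genes, the median log2 response was 1.25 in the replicate 1 libraries and 0.83 in the replicate 2 libraries. Using the replicate 1 libraries alone for SKNO-1 at 24 h, 141 genes were called at both times, 63 of them larger in Kasumi-1, and 78 of the 97 were among them. With the replicate 2 libraries alone there were 48 genes, 28 of them larger in Kasumi-1, and 45 of the 97 were among them. Each SKNO-1 group of 24 h then holds 1 library, whose spread is assumed to be like that of the other groups.

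**Figure D1:**
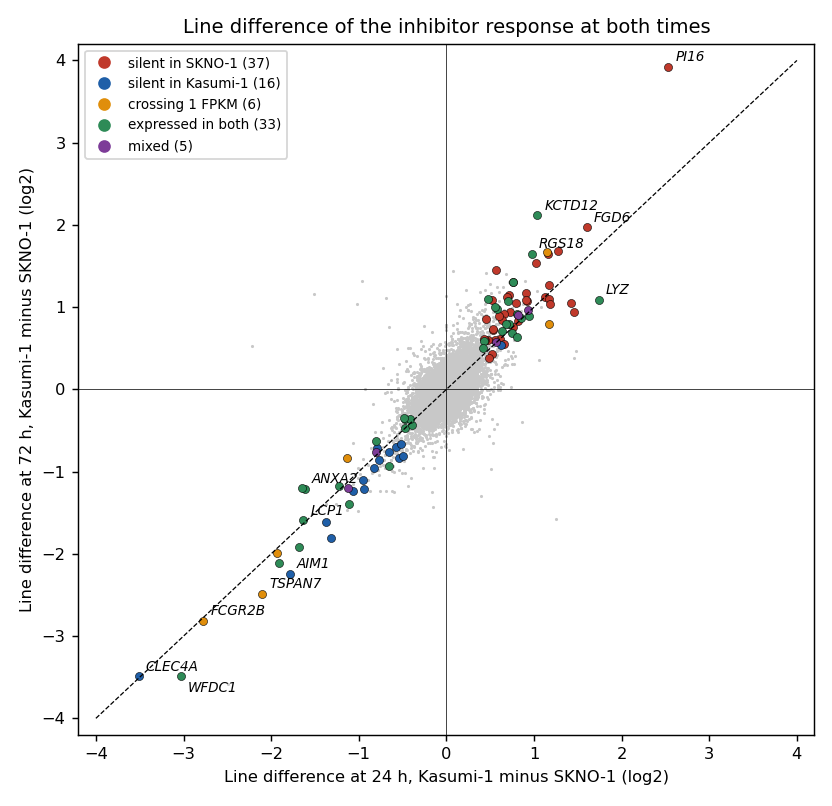
Line difference of the inhibitor response (Kasumi-1 minus SKNO-1, log2 scale) at 24 h on the x axis and at 72 h on the y axis for all genes tested. Coloured points are the 97 genes called at both times, by expression class; they run from -3.51 (CLEC4A, 24 h) to 3.92 (PI16, 72 h), and the dashed line marks equal values at both times.

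Among the 97 genes the absolute difference ran from 0.39 to 3.51 at 24 h (median 0.80) and from 0.35 to 3.92 at 72 h (median 0.96). It was larger at 72 h for 69 genes and larger at 24 h for 28. The change of the line difference from 24 to 72 h was itself tested and called for 0 genes by limma (0.0%; smallest adjusted p = 0.0768), while 343 had an unadjusted p under 0.05. Across all genes 9.69% rose and 11.2% fell in Kasumi-1 at 24 h, while SKNO-1 had 5.64% up and 3.44% down. The shares at 72 h were 13.0% up and 12.7% down in Kasumi-1 and 6.91% up and 4.16% down in SKNO-1. Most of the 97 genes rose past the test in one line and did not pass in the other. At 24 h 46 genes rose in Kasumi-1 without passing in SKNO-1 and 25 rose in SKNO-1 without passing in Kasumi-1. Both lines rose for 13 genes with a larger rise in Kasumi-1 and for 8 with a larger rise in SKNO-1. The other 5 genes fell in one line and did not pass in the other, 3 in Kasumi-1 and 2 in SKNO-1. At 72 h the counts were 43, 23, 15, 9, 3 and 2 in the same order, and the 2 remaining genes, RIPK2 and WFDC1, moved in opposite directions.

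**Figure D2:**
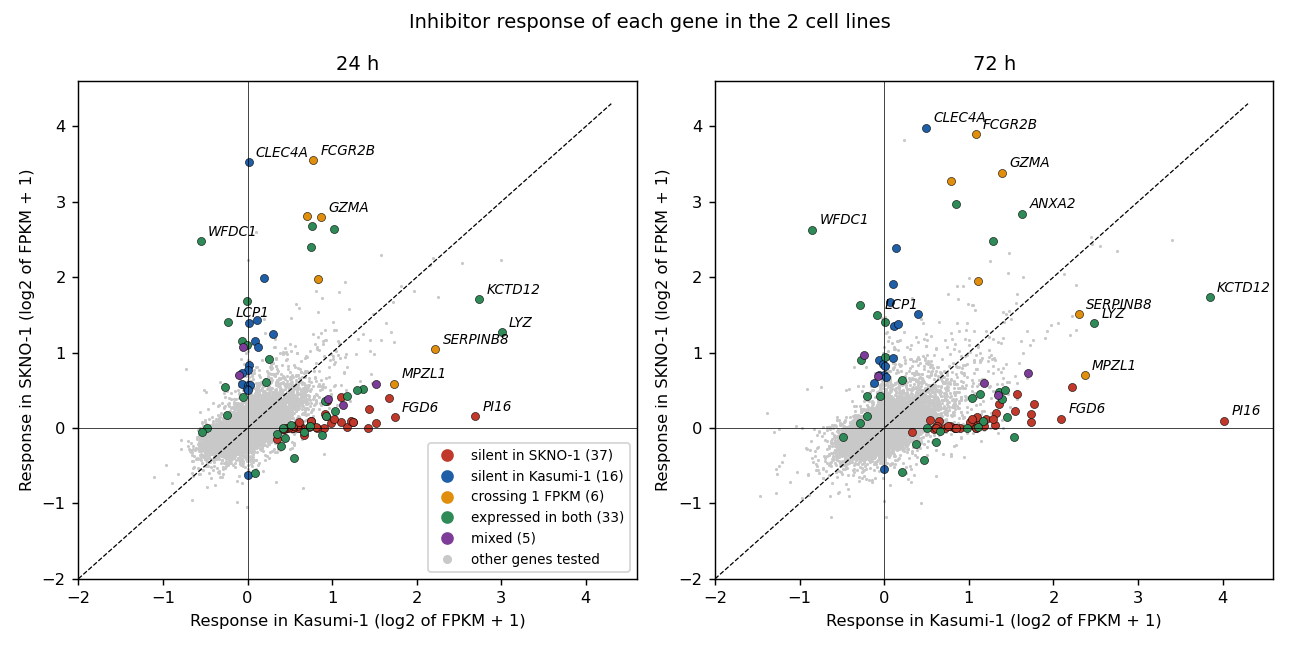
Response to the inhibitors in Kasumi-1 (x axis) and SKNO-1 (y axis) at 24 h (left) and 72 h (right), each as a log2 difference of FPKM + 1 between 4 inhibitor and 4 control libraries. Genes silent in SKNO-1 lie along the x axis, genes silent in Kasumi-1 along the y axis, and the dashed line marks equal responses; KCTD12 and LYZ rose in both lines and lie below it, FCGR2B and GZMA above it.

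A line difference can arise because one line does not express a gene at all, so the genes were sorted by level. A gene is called silent in a line when its mean in all 8 groups of that line, inhibitors included, was under 1 FPKM. It counts as expressed in both when the control mean reached 1 FPKM in both lines at both times. Genes silent in 1 line made up 53 of the 97: 37 were silent in SKNO-1 (5.38% of the 688 such genes tested) and 16 in Kasumi-1 (2.5% of 641). Genes expressed in both lines made up 33 of the 97 (0.333% of 9900). A further 6 genes (1.79% of 336) had a control mean under 1 FPKM at both times in a line but reached 1 FPKM in at least 1 group of it. The other 5 were mixed (1.96% of 255), with a control mean under 1 FPKM at one time only. Just inside the limit in SKNO-1 was CSF1R, whose highest group mean was 0.958 FPKM, and just outside COL6A5 at 1.31 FPKM. In Kasumi-1 CLEC4A was inside at 0.752 FPKM and MS4A14 outside at 1.05 FPKM.

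For 6 genes, each ranked first by size of difference in its class and direction among those with a RefSeq entry, the promoter is printed to show the sequence before genes that parted most between the lines. FAM105A, GFRA3 and PPP2R2B ranked first in the same way and are not printed. Each is the 250 bases upstream of the RefSeq start site on GRCh38.p14. They are read in the direction of the gene. Capitals mark matches, on either strand, to 4 short motifs: TGTGGT (bound by RUNX factors), AATCAC (GFI1), GAGGAA (PU.1) and TTCNNNGAA (STAT). PI16 lies at chr6:36948046-36948295 (plus strand), AIM1 (CRYBG1) at chr6:106360467-106360716 (plus strand), FCGR2B at chr1:161646993-161647242 (plus strand), MPZL1 at chr1:167721732-167721981 (plus strand), TRIM34 at chr11:5624751-5625000 (plus strand) and KCTD12 at chr13:76886406-76886655 (minus strand).
PI16: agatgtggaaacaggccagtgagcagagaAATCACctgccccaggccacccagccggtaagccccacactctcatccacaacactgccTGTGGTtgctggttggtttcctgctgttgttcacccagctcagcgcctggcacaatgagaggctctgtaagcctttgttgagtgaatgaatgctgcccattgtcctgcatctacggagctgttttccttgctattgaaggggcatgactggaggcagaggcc
AIM1: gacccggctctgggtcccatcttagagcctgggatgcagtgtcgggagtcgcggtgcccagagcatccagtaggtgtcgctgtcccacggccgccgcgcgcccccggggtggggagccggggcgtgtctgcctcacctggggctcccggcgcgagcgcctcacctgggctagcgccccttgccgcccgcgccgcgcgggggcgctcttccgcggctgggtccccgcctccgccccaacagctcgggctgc
FCGR2B: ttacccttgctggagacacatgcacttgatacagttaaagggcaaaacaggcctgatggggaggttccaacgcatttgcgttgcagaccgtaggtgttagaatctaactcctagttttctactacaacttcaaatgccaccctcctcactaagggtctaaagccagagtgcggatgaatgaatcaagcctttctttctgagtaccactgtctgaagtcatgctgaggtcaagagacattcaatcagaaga
MPZL1: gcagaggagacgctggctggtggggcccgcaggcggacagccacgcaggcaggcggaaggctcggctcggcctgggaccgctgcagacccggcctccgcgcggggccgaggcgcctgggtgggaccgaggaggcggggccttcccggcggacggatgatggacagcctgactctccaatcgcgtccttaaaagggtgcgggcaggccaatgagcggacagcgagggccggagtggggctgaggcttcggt
TRIM34: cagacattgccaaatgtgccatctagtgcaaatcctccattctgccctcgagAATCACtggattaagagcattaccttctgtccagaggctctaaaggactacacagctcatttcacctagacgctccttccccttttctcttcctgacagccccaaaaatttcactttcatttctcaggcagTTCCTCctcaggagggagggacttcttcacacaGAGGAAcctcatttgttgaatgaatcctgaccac
KCTD12: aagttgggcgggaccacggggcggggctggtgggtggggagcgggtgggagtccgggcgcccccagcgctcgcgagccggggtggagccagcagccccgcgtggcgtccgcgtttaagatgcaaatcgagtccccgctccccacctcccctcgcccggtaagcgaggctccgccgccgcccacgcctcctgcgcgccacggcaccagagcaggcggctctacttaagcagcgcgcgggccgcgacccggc

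PI16 held 1 RUNX and 1 GFI1 match and TRIM34 1 GFI1 and 2 PU.1 matches, while the windows of AIM1, FCGR2B, MPZL1 and KCTD12 held no match to these letters. Among the windows not printed, those of GFRA3 and PPP2R2B each held 1 RUNX match and that of FAM105A held no match. RefSeq promoters were found for 68 of the 97 genes, 45 with a larger Kasumi-1 response and 23 with a larger SKNO-1 response. The GFI1 motif was in 20.0% of the 45 and 17.4% of the 23, against 9.1% of all 27305 promoters of the same length. The RUNX motif was in 11.1% and 17.4% against 10.9%, the PU.1 motif in 28.9% and 17.4% against 23.4%, and the STAT motif in 11.1% and 8.7% against 6.78%. These shares rest on 2 to 13 genes each and were not tested. The promoters of LYZ, CLEC4A and WFDC1 were not used here.

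All 37 genes silent in SKNO-1 had the larger response in Kasumi-1, and all 37 rose there at both times; with SKNO-1 near 0, this is mostly the Kasumi-1 response itself. In Kasumi-1, 195 of all 688 genes silent in SKNO-1 rose at 24 h and 37 fell, against 9.69% and 11.2% of all genes. At 72 h 226 rose and 73 fell, against 13.0% and 12.7% of all genes. The Kasumi-1 controls held 13 of the 37 at 1 FPKM or more at both times and 23 under 1 FPKM at both times. Only genes at 1 FPKM or more in at least 2 libraries were tested. Genes this low in the controls of both lines can meet that filter mainly through Kasumi-1 inhibitor libraries. Their rise is thus partly built into the filter. The median line difference of the 37 was 0.73 at 24 h and 1.04 at 72 h. FPKM values below are given in the order DMSO replicates 1 and 2 and GSK690* replicates 1 and 2 for controls, and RN-1 replicates 1 and 2 and GSK690 replicates 1 and 2 for inhibitors.

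PI16 (chromosome 6, 36922208 to 36932613 on hg19), a secreted protein of the CAP superfamily, had the largest difference of the 97 at 72 h. PI16 in Kasumi-1 read 0.0283, 0, 0.0649 and 0.103 FPKM in the controls of 24 h and 4.41, 7.95, 5.39 and 5.78 FPKM with the inhibitors. By 72 h its controls stood at 0.115, 0.0173, 0.0149 and 0 FPKM and its inhibitor libraries at 19.2, 14.3, 15.1 and 15.0 FPKM. The SKNO-1 inhibitor libraries held 0.168, 0.0138, 0.287 and 0.0152 FPKM at 24 h and 0.0960, 0.0820, 0.0495 and 0.140 FPKM at 72 h, against at most 0.0870 FPKM in any SKNO-1 control. Every Kasumi-1 inhibitor library lay above every library of SKNO-1 and every control. The line difference was 2.53 ± 0.17 (SE) at 24 h and 3.92 ± 0.17 at 72 h (limma adjusted p = 7.06e-09 and 1.09e-12). FGD6, an exchange factor for the small GTPase CDC42, showed the same layout at lower levels. FGD6 in Kasumi-1 controls lay between 0.220 and 0.704 FPKM over both times, and its inhibitor libraries read 3.64, 3.43, 3.19 and 3.76 FPKM at 24 h and 3.52, 5.90, 6.48 and 7.04 FPKM at 72 h. All 16 SKNO-1 libraries lay between 0.124 and 0.390 FPKM, and the groups of SKNO-1 overlapped at 24 h. Its line difference was 1.60 ± 0.14 at 24 h and 1.97 ± 0.14 at 72 h (adjusted p = 4.39e-07 and 6.33e-09).

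CTSO, a lysosomal cysteine protease, was already present in Kasumi-1. CTSO in Kasumi-1 controls read 1.41, 1.64, 3.24 and 2.96 FPKM at 24 h, lower with DMSO than with GSK690*, and 9.13, 8.95, 8.83 and 9.94 FPKM with the inhibitors. At 72 h it went from 2.87 ± 0.566 to 16.9 ± 1.19 FPKM (mean ± SD, n = 4 libraries). It also rose in SKNO-1 while staying under the 1 FPKM limit, from 0.199 ± 0.0250 to 0.748 ± 0.128 FPKM at 72 h (log2 0.54, adjusted p = 0.000788). The line difference was 1.27 ± 0.14 and 1.68 ± 0.14 (adjusted p = 1.08e-05 and 8.22e-08), and it did not pass with a pseudocount of 0.1, which weighs such low values more.

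CSF1R, the receptor for the macrophage growth factor CSF1, belongs to the same class and sits at its edge. CSF1R in Kasumi-1 controls read 1.35, 1.67, 1.86 and 2.45 FPKM at 24 h and 3.44, 3.42, 3.59 and 3.51 FPKM at 72 h. With the inhibitors it read 7.09, 7.14, 5.94 and 6.17 FPKM and 12.0, 9.16, 12.6 and 8.75 FPKM. The SKNO-1 libraries with inhibitor read 0.489, 0.617, 0.300 and 0.557 FPKM at 24 h and 0.670, 1.10, 0.764 and 1.15 FPKM at 72 h, 2 of them above 1 FPKM. Kasumi-1 inhibitor libraries lay above all others, and inhibitor and control libraries of SKNO-1 overlapped at both times. The difference was 1.18 ± 0.17 at 24 h and 1.04 ± 0.17 at 72 h (adjusted p = 0.00027 and 0.000572), and it did not pass at either time with a pseudocount of 0.1.

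COL27A1, a fibrillar collagen chain, rose in Kasumi-1 from 0.774 ± 0.211 to 2.99 ± 0.290 FPKM at 24 h and from 0.859 ± 0.122 to 5.21 ± 1.00 FPKM at 72 h. It stood at 0.133 FPKM or less in every SKNO-1 library, which gives line differences of 1.16 and 1.65. FOLH1, a membrane glutamate carboxypeptidase, rose from 1.51 ± 0.469 to 4.94 ± 0.790 FPKM at 24 h. RBP7, a retinol-binding protein, was listed at 0 in 5 of the 8 Kasumi-1 controls and read 1.28, 1.48, 1.30 and 1.85 FPKM with the inhibitors at 24 h, with line differences of 1.17 and 1.09. ADAP2, an ARF GTPase-activating protein, differed by 1.12 and 1.13. MS4A14, of the membrane-spanning MS4A family, reached 0.946 ± 0.155 FPKM with inhibitors at 24 h and had differences of 0.52 and 0.43. Its call ended in 7 of the 32 fits without 1 library at 24 h (adjusted p = 0.0505 to 0.0728) and in 11 at 72 h (0.0529 to 0.111), the highest without RN-1 replicate 2 and GSK690 replicate 1 of Kasumi-1.

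The other genes of this class span several pathways that the rule did not choose. WLS, which carries Wnt proteins to the cell surface, differed by 1.42 at 24 h and 1.05 at 72 h. LY9, a SLAM-family receptor of leukocytes, differed by 1.02 and 1.54, and GIMAP4, a GTPase of lymphoid cells, by 1.46 and 0.95. GLI3, a transcription factor of Hedgehog signalling, differed by 0.90 and 1.08. TLR3, the receptor for double-stranded RNA, differed by 0.65 and 0.92, and DLL1, a Notch ligand, by 0.53 and 0.73. The 24 h call of DLL1 ended in 8 of 32 fits without 1 library (adjusted p = 0.0532 to 0.0693, highest without GSK690* replicate 1 of Kasumi-1). The smallest differences of the class were 0.43 at 24 h, for CCDC50, and 0.39 at 72 h, for PRICKLE1. The 24 h call of CCDC50 ended in 22 such fits (0.0502 to 0.122, highest without DMSO replicate 2 of Kasumi-1). The call of PRICKLE1 ended in 10 at 24 h (0.0506 to 0.0841, highest without DMSO replicate 1 of Kasumi-1) and in 23 at 72 h (0.0502 to 0.123, highest without RN-1 replicate 1 of SKNO-1).

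**Figure D3:**
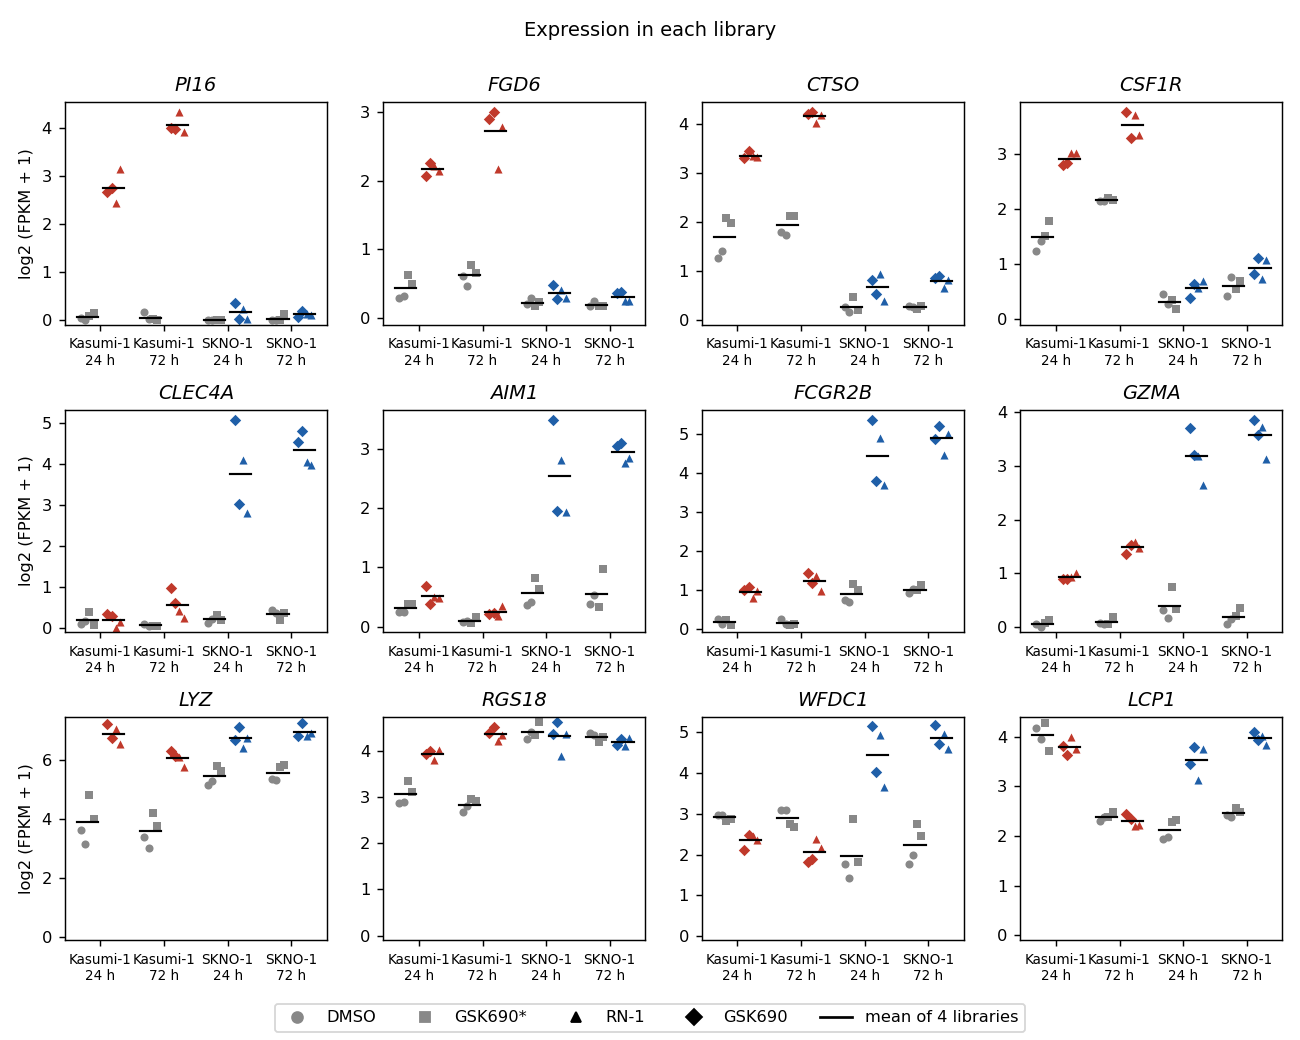
Expression of 12 genes in every library as log2(FPKM + 1), with controls in grey and inhibitor libraries in red (Kasumi-1) or blue (SKNO-1); bars mark the mean of 4 libraries and marker shape gives the agent. The top row holds genes silent in SKNO-1, where inhibitor values rise far more in Kasumi-1; in the SKNO-1 24 h panels of CLEC4A, AIM1, FCGR2B and WFDC1, 1 library of each inhibitor stands well above the other.

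Of the 16 genes silent in Kasumi-1, 15 rose in SKNO-1 at both times and 1, PPP2R2B, fell there at both. In the whole class of 641 genes, 100 rose in SKNO-1 and 22 fell at 24 h, against 5.64% and 3.44% of all genes. At 72 h 143 rose and 36 fell, against 6.91% and 4.16% of all genes. The SKNO-1 controls held 4 of the 16 at 1 FPKM or more at both times and 11 under 1 FPKM at both. For genes this low the filter again favours a rise, here through the SKNO-1 inhibitor libraries. The median difference of the 15 was -0.82 at 24 h and -0.96 at 72 h.

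CLEC4A (chromosome 12, 8276227 to 8291203), a C-type lectin of myeloid cells with an inhibitory cytoplasmic motif, had the largest difference of the 97 at 24 h. CLEC4A in SKNO-1 read 0.0862, 0.169, 0.262 and 0.157 FPKM in controls and 16.0, 5.97, 32.6 and 7.14 FPKM with the inhibitors at 24 h. At 72 h the controls stood at 0.368, 0.306, 0.151 and 0.301 FPKM and the inhibitor libraries at 15.7, 14.6, 22.1 and 26.7 FPKM. All 8 inhibitor libraries lay far above the controls, but at 24 h replicate 1 of each inhibitor was well above replicate 2, which was not so at 72 h. The Kasumi-1 inhibitor libraries held 0, 0.107, 0.284 and 0.238 FPKM at 24 h, overlapping their controls, and 0.345, 0.189, 0.962 and 0.541 FPKM at 72 h, above theirs without passing the test (adjusted p = 0.197). The line difference was -3.51 ± 0.39 and -3.48 ± 0.39 (adjusted p = 1.35e-05 and 5.78e-06).

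AIM1, named CRYBG1 in current annotation and coding for a protein with crystallin-type domains, followed the same layout. AIM1 in SKNO-1 read 0.289, 0.329, 0.773 and 0.551 FPKM in controls and 6.01, 2.82, 10.2 and 2.88 FPKM with inhibitors at 24 h. At 72 h it read 0.299, 0.453, 0.261 and 0.953 and 5.76, 6.14, 7.27 and 7.59 FPKM. Again replicate 1 was the higher at 24 h, and at 72 h replicate 2 was slightly higher, and no inhibitor library overlapped the controls. Its difference was -1.79 ± 0.31 and -2.24 ± 0.31 (adjusted p = 0.00224 and 7.97e-05). TNFAIP8L3, a lipid transfer protein for phosphoinositides, went from 0.489 ± 0.145 to 4.65 ± 1.07 FPKM in SKNO-1 at 72 h and differed by -1.32 and -1.81. FAM111B, a protease of proliferating cells, went from 0.539 ± 0.115 to 3.02 ± 0.582 FPKM and differed by -0.94 and -1.22. CEP112, a centrosomal protein, went from 1.14 ± 0.416 to 5.04 ± 0.758 FPKM and differed by -0.95 and -1.11. It also rose in Kasumi-1 at 72 h, by 0.40 on the log2 scale, while staying under 1 FPKM.

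S1PR1, the sphingosine-1-phosphate receptor that guides leukocytes out of tissues, and IER3, a stress-response gene, depended on single libraries at 24 h. S1PR1 in SKNO-1 read 3.20, 1.14, 5.53 and 1.23 FPKM with the inhibitors at 24 h and 3.34, 1.80, 4.38 and 2.49 FPKM at 72 h, against 0.133 to 0.702 and 0.0486 to 0.380 FPKM in controls. Its difference at 24 h (-1.37, adjusted p = 0.0471) did not pass in 25 of 32 fits without 1 library (adjusted p = 0.0530 to 0.151), the highest without RN-1 replicate 1 of SKNO-1. That of IER3 (-1.06, adjusted p = 0.0366) did not pass in 15 (0.0504 to 0.115), the highest also without RN-1 replicate 1 of SKNO-1. At 72 h both held in every such fit, at -1.61 and -1.24. Further members were DKK2, a modulator of Wnt signalling, at -0.82 and -0.96, and LPL, the lipase that frees fatty acids from lipoproteins, at -0.66 and -0.76. The 24 h call of LPL ended in 28 of the 32 fits (adjusted p = 0.0510 to 0.157), the highest without RN-1 replicate 1 of SKNO-1.

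PPP2R2B, a regulatory subunit of protein phosphatase 2A, was the 1 gene that fell in the line that expressed it. PPP2R2B in SKNO-1 went from 1.46, 0.685, 1.03 and 0.932 to 0.365, 0.205, 0.175 and 0.478 FPKM at 24 h. At 72 h it went from 1.42, 1.25, 0.528 and 0.715 to 0.290, 0.391, 0.510 and 0.188 FPKM, and 14 of the 16 Kasumi-1 libraries list it at 0. No SKNO-1 inhibitor library reached its controls at either time, but all values are low. The difference of 0.63 and 0.54 did not pass in 13 of 32 fits without 1 library at 24 h (adjusted p = 0.0559 to 0.100, highest without GSK690 replicate 1 of SKNO-1) and in 13 at 72 h (0.0508 to 0.105, highest without GSK690 replicate 2 of SKNO-1).

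GFI1B (chromosome 9, 135820931 to 135867083), which recruits KDM1A to chromatin, is silent in Kasumi-1 and was followed whatever its values. GFI1B in SKNO-1 read 0.110, 0, 0.617 and 0.0218 FPKM in controls and 17.0, 1.53, 17.2 and 1.94 FPKM with inhibitors at 24 h. At 72 h it read 0, 0.0208, 0.239 and 0.107 FPKM in controls and 16.2, 10.2, 21.6 and 11.7 FPKM with inhibitors. At 24 h replicate 1 of each inhibitor lay far above replicate 2, and at 72 h no inhibitor library came near the controls. The line difference of -2.50 ± 0.63 missed the threshold at 24 h (adjusted p = 0.0568) and passed at 72 h (-3.59 ± 0.63, adjusted p = 0.00139). It is therefore not among the 97.

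The 6 genes that crossed 1 FPKM in one line are described next. FCGR2B, the inhibitory receptor for IgG, rose in both lines and further in SKNO-1. FCGR2B in SKNO-1 read 0.674, 0.613, 1.21 and 1.00 FPKM in controls and 28.9, 11.9, 40.6 and 12.9 FPKM with inhibitors at 24 h, and 21.2, 31.2, 28.7 and 36.5 FPKM with inhibitors at 72 h. FCGR2B in Kasumi-1 reached 0.722, 0.939, 0.993 and 1.10 FPKM at 24 h and 1.56, 0.958, 1.71 and 1.24 FPKM at 72 h from 0.0739 to 0.179 and 0.0689 to 0.194 FPKM. In each line no inhibitor library overlapped the controls, and the lowest SKNO-1 inhibitor library lay above the highest of Kasumi-1. The difference was -2.77 ± 0.34 and -2.81 ± 0.34 (adjusted p = 3.97e-05 and 1.56e-05). The hg19 interval given for FCGR2B (chromosome 1, 161551100 to 161648444) contains that of its near-identical neighbour FCGR2C, so their reads may have been shared between them.

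GZMA, a serine protease known from cytotoxic lymphocytes, likewise rose in both lines. GZMA in SKNO-1 read 0.243, 0.127, 0.672 and 0.258 FPKM in controls and 8.15, 5.25, 12.0 and 8.25 FPKM with inhibitors at 24 h, and went to 12.2, 7.81, 13.5 and 10.9 FPKM at 72 h. GZMA in Kasumi-1 read 0.908, 1.01, 0.851 and 0.851 FPKM at 24 h and 2.02, 1.78, 1.56 and 1.89 FPKM at 72 h, with controls at 0.144 FPKM or less. The inhibitor libraries of SKNO-1 lay above those of Kasumi-1 throughout. The difference was -1.93 ± 0.19 and -1.99 ± 0.19 (adjusted p = 2.28e-06 and 6.11e-07). Among 24 markers of T and NK cells, 20 stayed under 1 FPKM in every Kasumi-1 library and 21 in every SKNO-1 library. The summed level of the 5 markers that met the filter was 2.30 to 3.10 FPKM in the SKNO-1 controls of 24 h. With the inhibitors it was 7.46 to 14.0 FPKM, mostly GZMA itself.

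TSPAN7, a tetraspanin of the cell membrane, was high in Kasumi-1 from the start. TSPAN7 in Kasumi-1 went from 53.5 ± 8.27 to 87.3 ± 7.02 FPKM at 24 h and from 83.2 ± 4.83 to 144 ± 5.62 FPKM at 72 h. TSPAN7 in SKNO-1 went from 0.282, 0.338, 1.34 and 0.467 to 14.2, 5.78, 18.6 and 6.03 FPKM at 24 h and from 0.263, 0.569, 0.636 and 1.63 to 12.0, 16.8, 15.3 and 18.5 FPKM at 72 h. SKNO-1 started lower, gained more on the log scale and still ended below Kasumi-1 (difference -2.10 and -2.48). CAMSAP2, which binds microtubule minus ends, went from 0.427 ± 0.156 to 4.76 ± 1.76 FPKM in SKNO-1 and from 0.135 ± 0.0343 to 1.03 ± 0.129 FPKM in Kasumi-1 at 24 h (difference -1.14). At 72 h its difference of -0.84 did not pass in 9 of 32 fits without 1 library (adjusted p = 0.0524 to 0.0815, highest without GSK690 replicate 1 of SKNO-1).

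MPZL1 and SERPINB8 were the crossing genes with the larger response in Kasumi-1. MPZL1, a cell-surface glycoprotein with an immunoglobulin domain, went in Kasumi-1 from 0.659, 0.210, 0.493 and 0.620 to 5.26, 5.70, 7.85 and 8.34 FPKM at 72 h. It went in SKNO-1 from 35.9, 35.6, 39.7 and 39.4 to 62.3, 59.1, 62.3 and 63.5 FPKM. The level stayed higher in SKNO-1 while the log response was larger in Kasumi-1, by 1.15 ± 0.11 at 24 h and 1.67 ± 0.11 at 72 h (adjusted p = 2.18e-06 and 3.2e-09). SERPINB8, an intracellular protease inhibitor, rose from 4.55 ± 1.87 to 23.7 ± 1.00 FPKM in Kasumi-1 and from 0.153 ± 0.0542 to 1.41 ± 0.499 FPKM in SKNO-1 at 24 h. Its difference was 1.17 and 0.80 with the pseudocount of 1 and -0.10 and -0.74 with a pseudocount of 0.1, so which line responded more depends on the scale for this gene.

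The 33 genes expressed in both lines had a control level of at least 1 FPKM in each line. Of these, 18 had the larger response in Kasumi-1 (median difference 0.74 at 24 h and 0.90 at 72 h) and 15 the larger response in SKNO-1 (median -1.11 and -1.18). The count of 33 was 20 without DMSO replicate 1 or without GSK690 replicate 1 of SKNO-1 at 24 h, 21 without GSK690* replicate 2 of Kasumi-1 at 24 h, and 50 without GSK690 replicate 2 of SKNO-1 at 24 h.

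LYZ (chromosome 12, 69742120 to 69748014), which codes for lysozyme, an antibacterial enzyme of phagocytes, rose in both lines and further in Kasumi-1. LYZ in Kasumi-1 read 11.5, 7.95, 27.3 and 15.0 FPKM in controls and 134, 94.0, 151 and 107 FPKM with inhibitors at 24 h, and 9.48, 7.23, 17.7 and 12.7 and 68.6, 53.9, 79.2 and 69.2 FPKM at 72 h. LYZ in SKNO-1 read 35.0, 38.6, 55.0 and 49.3 FPKM in controls and 84.2, 107, 103 and 141 FPKM with inhibitors at 24 h, and 40.4, 38.9, 53.2 and 56.9 and 113, 122, 113 and 152 FPKM at 72 h. Controls of Kasumi-1 lay below those of SKNO-1 in every library, while the inhibitor libraries of the lines overlapped at 24 h. GSK690* libraries were the higher controls in both lines. The difference was 1.74 ± 0.25 at 24 h and 1.09 ± 0.25 at 72 h (adjusted p = 0.000255 and 0.0116).

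KCTD12, an auxiliary subunit of GABA-B receptors, started alike in both lines and parted with the inhibitors. KCTD12 controls ran from 1.63 to 1.93 FPKM in Kasumi-1 and 1.39 to 1.59 FPKM in SKNO-1 at 24 h, and from 1.06 to 1.58 and 1.12 to 1.95 FPKM at 72 h. With the inhibitors Kasumi-1 read 17.2, 16.7, 18.2 and 18.0 FPKM at 24 h and 26.9, 28.8, 36.5 and 34.7 FPKM at 72 h. SKNO-1 read 6.59, 6.19, 9.35 and 6.38 FPKM and 7.10, 7.82, 7.40 and 7.12 FPKM. The inhibitor libraries of the lines did not overlap at either time. The difference was 1.04 ± 0.14 and 2.12 ± 0.14 (adjusted p = 0.000106 and 2.74e-09).

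RGS18, a regulator of G protein signalling in blood cells, rose in Kasumi-1 from a level below that of SKNO-1. RGS18 in Kasumi-1 read 6.34, 6.46, 9.13 and 7.70 FPKM in controls and 13.0, 15.2, 14.4 and 14.9 FPKM with inhibitors at 24 h, and 5.37, 5.99, 6.80 and 6.54 and 17.5, 19.4, 20.1 and 21.8 FPKM at 72 h. RGS18 in SKNO-1 read 20.1, 19.4, 17.4 and 18.7 FPKM in controls and 16.2, 18.4, 16.4 and 18.2 FPKM with inhibitors at 72 h. Kasumi-1 controls lay under all SKNO-1 libraries, and Kasumi-1 inhibitor libraries of 72 h lay in the same range as SKNO-1. The difference was 0.97 ± 0.14 and 1.65 ± 0.14 (adjusted p = 0.000218 and 7.87e-08). CTSS, a lysosomal protease of antigen-presenting cells, rose in Kasumi-1 from 20.8 ± 3.83 to 54.9 ± 5.56 FPKM and in SKNO-1 from 29.7 ± 3.87 to 42.9 ± 4.54 FPKM at 24 h, and differed by 0.85 and 0.87. LPXN, a focal adhesion adaptor of leukocytes, differed by 0.80 and 0.92. ICAM2, an adhesion ligand of leukocyte integrins, rose in Kasumi-1 from 4.34 ± 0.559 to 13.7 ± 2.20 FPKM at 72 h and stayed at 59.5 ± 4.71 FPKM with inhibitors in SKNO-1, a difference of 1.30.

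Several other genes differed toward Kasumi-1, some with calls that single libraries ended. IFNGR1, a chain of the interferon gamma receptor, differed by 0.42 and 0.51, and its 24 h call ended in 12 of 32 fits without 1 library (adjusted p = 0.0708 to 0.122, highest without GSK690 replicate 2 of Kasumi-1). ITGA4, the alpha chain of the integrin VLA-4, differed by 0.63 and 0.71, and its 24 h call ended in 9 (0.0617 to 0.100, highest without RN-1 replicate 1 of SKNO-1). The interval of its neighbour CERKL lies 487 bases from that of ITGA4, and CERKL differed by 0.57 and 0.98, in the same direction. Whether reads ran from one gene into the other was not tested. SPEF2, known from sperm flagella, differed by 0.94 and 0.89; its call ended in 23 fits at 24 h (0.0508 to 0.142, highest without DMSO replicate 2 of SKNO-1) and in 10 at 72 h (0.0535 to 0.0922, highest without GSK690* replicate 2 of Kasumi-1). HERC5, an interferon-induced ligase for the ubiquitin-like protein ISG15, differed by 0.75 and 0.68 and held in all 32.

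WFDC1 (chromosome 16, 84328251 to 84363450), a secreted protein with a whey acidic protein domain, had the largest differences toward SKNO-1 among the genes expressed in both lines. WFDC1 in SKNO-1 read 2.39, 1.67, 6.29 and 2.55 FPKM in controls and 29.5, 11.7, 34.6 and 15.4 FPKM with inhibitors at 24 h, and 2.43, 2.99, 5.67 and 4.46 and 30.3, 23.3, 35.4 and 25.3 FPKM at 72 h. WFDC1 in Kasumi-1 read 6.87, 6.87, 6.14 and 6.28 FPKM in controls and 4.52, 4.14, 3.32 and 4.63 FPKM with inhibitors at 24 h, and 7.53, 7.59, 5.77 and 5.41 and 4.17, 3.46, 2.50 and 2.71 FPKM at 72 h. All inhibitor libraries of SKNO-1 lay above their controls and all those of Kasumi-1 below theirs. The fall in Kasumi-1 passed at 72 h (log2 -0.85, adjusted p = 0.0125), and the value at 24 h was -0.56 (adjusted p = 0.109). The line difference was -3.03 ± 0.34 and -3.48 ± 0.34 (adjusted p = 1.48e-05 and 9.99e-07).

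LCP1, the actin-bundling protein L-plastin, rose in SKNO-1 alone. LCP1 in SKNO-1 read 2.85, 2.93, 3.83 and 3.97 FPKM in controls and 7.73, 12.5, 9.98 and 12.9 FPKM with inhibitors at 24 h, and 4.37, 4.24, 4.94 and 4.59 and 15.1, 13.2, 16.1 and 14.4 FPKM at 72 h. Kasumi-1 went from 15.6 ± 2.78 to 13.0 ± 1.52 FPKM at 24 h and from 4.22 ± 0.266 to 3.93 ± 0.400 FPKM at 72 h, with overlapping libraries at both times. Its Kasumi-1 level also stood higher at 24 than at 72 h under every agent. The difference was -1.63 ± 0.17 and -1.59 ± 0.17 (adjusted p = 6.71e-06 and 4.14e-06). LMNA, the nuclear lamin A, likewise rose in SKNO-1, from 3.06 ± 0.435 to 8.21 ± 2.43 FPKM at 24 h, and differed by -1.22 and -1.18. FAM105A, named OTULINL in current annotation, went from 3.21 ± 1.10 to 12.8 ± 5.12 FPKM in SKNO-1 and read 11.0 ± 0.395 and 10.9 ± 0.862 FPKM in Kasumi-1 at 24 h, a difference of -1.69 (-1.92 at 72 h).

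ANXA2 and SCPEP1 rose in both lines, more in SKNO-1, and the levels of the lines lay closer with the inhibitors than in controls. ANXA2, a calcium-dependent membrane-binding protein, read 17.3, 14.3, 20.1 and 15.2 FPKM in Kasumi-1 controls and 36.7, 30.8, 37.5 and 34.3 FPKM with inhibitors at 24 h. In SKNO-1 it read 4.02, 3.86, 9.56 and 5.39 FPKM in controls and 39.2, 30.0, 47.2 and 40.1 FPKM with inhibitors. At this time SKNO-1 controls lay below all Kasumi-1 libraries, and the inhibitor libraries of the lines overlapped. The difference was -1.62 ± 0.18 and -1.21 ± 0.18 (adjusted p = 1.5e-05 and 0.000312). SCPEP1, a serine carboxypeptidase, went from 19.1 ± 1.02 to 48.0 ± 2.80 FPKM in Kasumi-1 and from 10.1 ± 2.57 to 60.0 ± 9.18 FPKM in SKNO-1 at 72 h, with differences of -1.65 and -1.19. FCGR2C, the neighbour of FCGR2B, went from 5.95 ± 0.778 to 55.2 ± 17.6 FPKM in SKNO-1 and from 2.25 ± 0.198 to 4.91 ± 0.978 FPKM in Kasumi-1, with differences of -1.91 and -2.11.

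The 5 mixed genes repeat both patterns. TRIM34 and TRIM6, ubiquitin ligases of the tripartite motif family, are neighbours 6804 bases apart, so reads may have been shared between them, which was not tested. TRIM34 went in Kasumi-1 from 0.944 ± 0.442 to 4.52 ± 0.971 FPKM at 24 h and differed by 0.93 and 0.96. TRIM6 differed by 0.57 and 0.58, and its call ended in 21 of 32 fits without 1 library at 24 h (adjusted p = 0.0507 to 0.141, highest without RN-1 replicate 1 of SKNO-1) and in 2 at 72 h (0.0545 and 0.0559, the latter without GSK690 replicate 2 of Kasumi-1). TFPI, the inhibitor of tissue factor coagulation, differed by 0.82 and 0.91, and its 24 h call ended in 5 (0.0505 to 0.0623, highest without DMSO replicate 2 of SKNO-1). TBC1D30, a GTPase-activating protein for Rab proteins, and GFRA3, a receptor for ligands of the GDNF family, had the larger response in SKNO-1, by -1.12 and -0.81 at 24 h and -1.21 and -0.76 at 72 h.

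**Figure D4:**
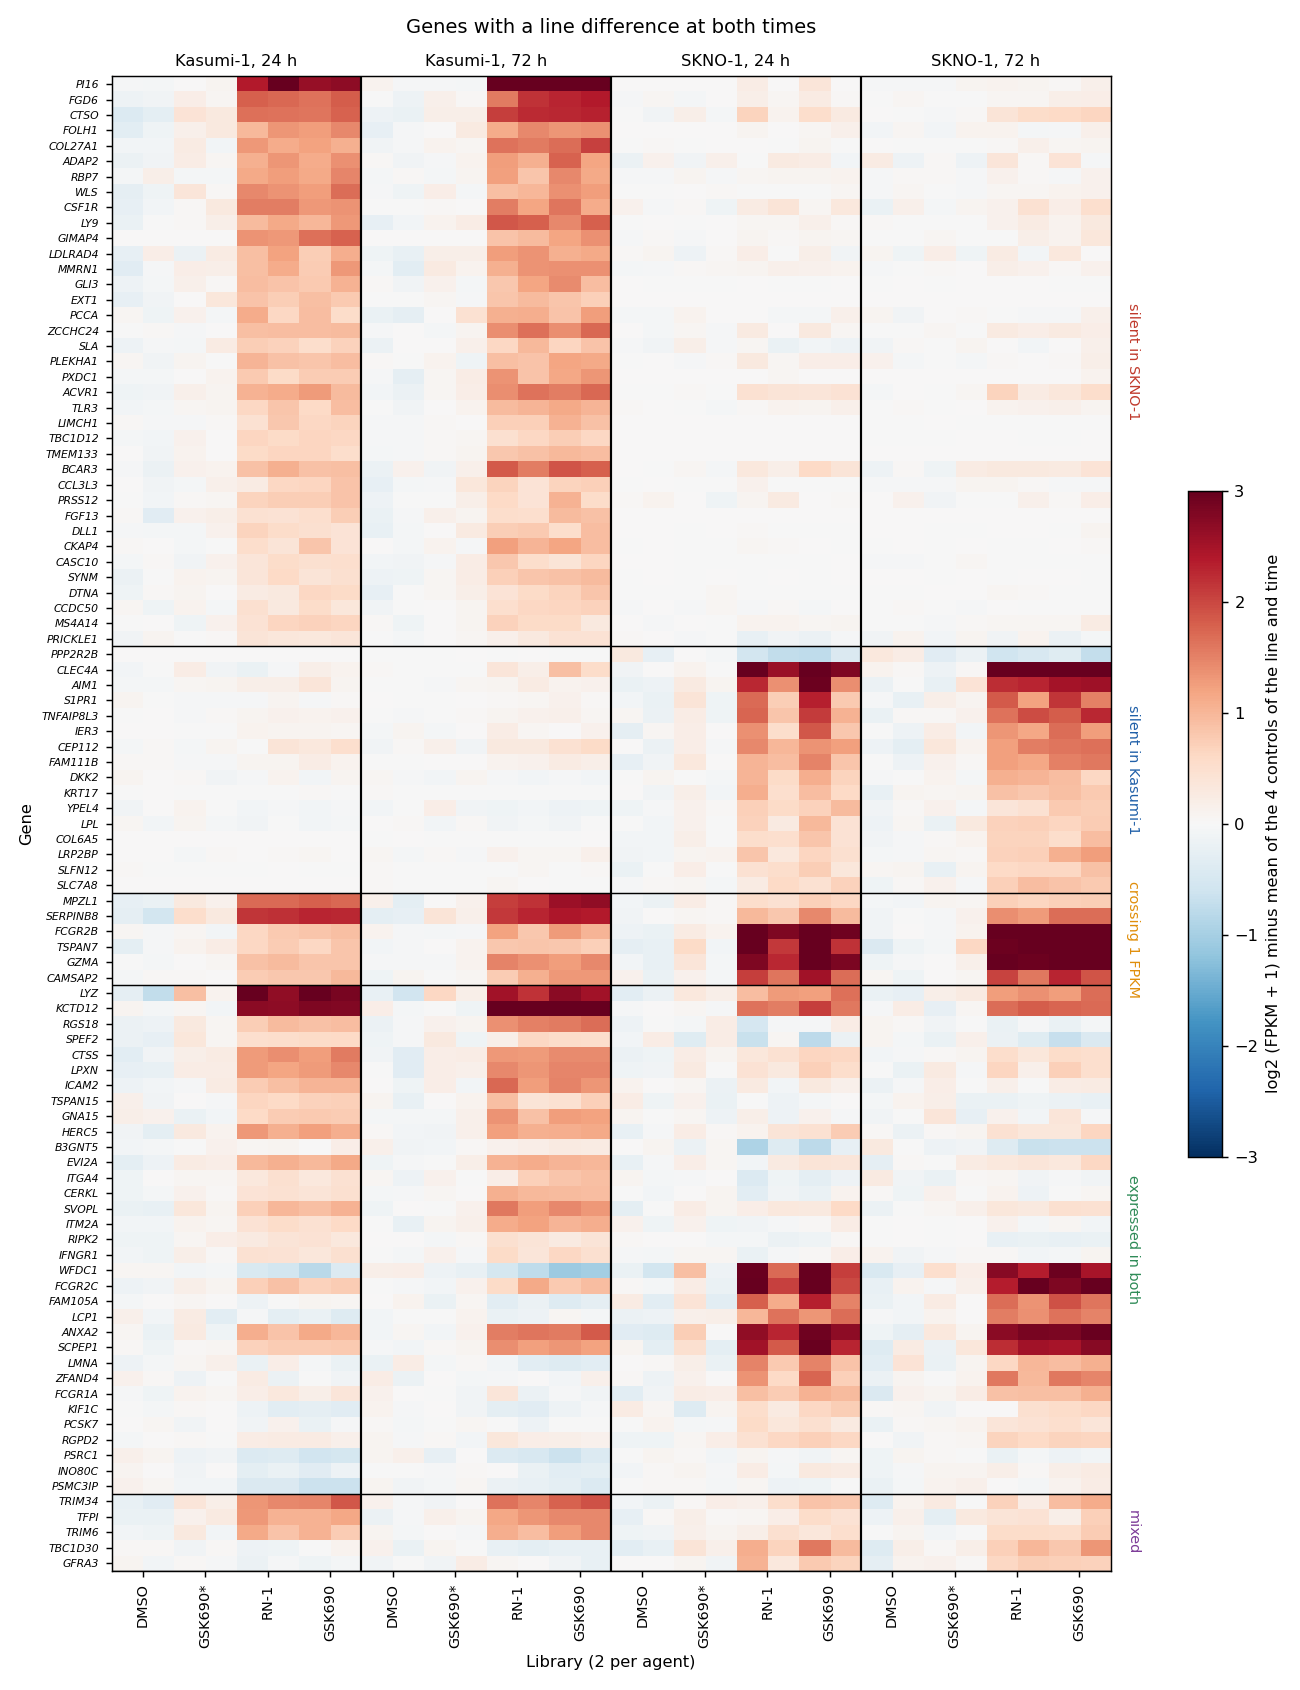
The 97 genes called at both times (rows, grouped by expression class) in the 32 libraries (columns, 2 per agent), as log2(FPKM + 1) minus the mean of the 4 controls of the same line and time; colours saturate at 3 and -3. The 37 genes silent in SKNO-1 change in the Kasumi-1 columns, 15 of the 16 silent in Kasumi-1 rise in the SKNO-1 columns, and within SKNO-1 at 24 h the left of each inhibitor's columns is often the darker.

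Genes called in opposite directions in the lines, and also in the difference, were 0 at 24 h and 9 at 72 h. A gene can move in opposite directions without passing in each line, as WFDC1 did at 24 h. VAT1, a membrane protein of vesicle transport, rose in Kasumi-1 from 22.5, 26.1, 22.0 and 27.1 to 31.1, 33.6, 29.6 and 32.8 FPKM and fell in SKNO-1 from 84.8, 87.5, 85.2 and 77.7 to 61.3, 63.0, 54.6 and 60.7 FPKM. The 4 inhibitor libraries lay above the controls in Kasumi-1 and below them in SKNO-1. Its difference was 0.85 ± 0.15 at 72 h (adjusted p = 0.0017) and 0.60 at 24 h, just outside the threshold (adjusted p = 0.056). TYROBP, the signalling adaptor DAP12 of myeloid receptors, rose from 0.681 ± 0.0667 to 1.22 ± 0.301 FPKM in Kasumi-1 and fell from 7.55 ± 1.21 to 5.53 ± 0.447 FPKM in SKNO-1 (difference 0.77, adjusted p = 0.0116). ARHGAP26, a GTPase-activating protein for RHOA, fell in Kasumi-1 by 0.41 and rose in SKNO-1 by 0.52 on the log2 scale at 72 h (difference -0.93). CCPG1, a receptor for autophagy of the endoplasmic reticulum, rose in Kasumi-1 by 0.33 and fell in SKNO-1 by 0.30 (difference 0.63). Of these 9, WFDC1 and RIPK2 alone were also called at 24 h.

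Of 33 gene lists, 10 held a member called at both times, and the Fc receptors are described first. Of 9 Fc receptor genes tested, 4 were called at 24 h, 5 at 72 h and 3 at both, FCGR2B, FCGR2C and FCGR1A, each with the larger response in SKNO-1, against 1.12%, 3.47% and 0.816% of all genes tested. The median line difference of the 9 was -0.58 at 24 h and -0.78 at 72 h. All 9 rose in SKNO-1 at 72 h, against 6.91% of all genes, and 5 rose in Kasumi-1, against 13.0%. The list holds 19 genes, and the 9 are those that met the filter on low values. Members low in controls can meet it through the inhibitor libraries, so a rise is partly built in. FCGR2B and FCGR2C, and FCGR1A and FCGR1B, are near-identical pairs and not independent members. FCGR1A, the high-affinity IgG receptor, differed by -0.66 and -0.93 and has a near-identical copy, FCGR1B. Its 24 h call ended in 12 of 32 fits without 1 library (adjusted p = 0.0512 to 0.103, highest without DMSO replicate 1 of SKNO-1). FCER1G, the common signalling chain of Fc receptors, went from 9.75 ± 1.26 to 17.7 ± 2.55 FPKM in SKNO-1 at 72 h and read 3.23 ± 0.496 and 3.58 ± 0.845 FPKM in Kasumi-1 (difference -0.69, adjusted p = 0.0444). That call ended in 23 such fits (0.0530 to 0.140, highest without GSK690 replicate 1 of Kasumi-1). FCRLA, a relative of the Fc receptors known from B cells, differed by -0.58 at 24 h (adjusted p = 0.0471) and by -0.46 at 72 h (adjusted p = 0.0881), and its 24 h call ended in 26 (0.0530 to 0.125, highest without RN-1 replicate 2 of Kasumi-1).

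Markers of monocytes and macrophages differed in both directions. Of 17 tested, 3 had a larger response in Kasumi-1 and 1 in SKNO-1 at 24 h, and 6 and 2 at 72 h. Over all genes 1.12% were called at 24 h and 3.47% at 72 h. Called at both times were LYZ, CSF1R and CTSS toward Kasumi-1 and FCGR1A toward SKNO-1. In each line and at each time 10 of the 17 rose, against 9.69% of all genes in Kasumi-1 and 5.64% in SKNO-1 at 24 h and 13.0% and 6.91% at 72 h. The list holds 28 genes, and the 17 are those that met the filter, which favours a rise for genes low in controls. The median line difference of the 17 was 0.47 at 24 h and 0.32 at 72 h. LY96, the partner of the endotoxin receptor TLR4, went from 0.0833 ± 0.0533 to 10.6 ± 2.24 FPKM in Kasumi-1 and from 0.574 ± 0.397 to 7.69 ± 1.48 FPKM in SKNO-1, and its difference of 0.91 passed at 72 h (adjusted p = 0.0106) and missed at 24 h (0.77, adjusted p = 0.0741).

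Of 25 cytokine receptors tested, 2 were called at 24 h, CSF1R and IFNGR1, both toward Kasumi-1. At 72 h 4 were called toward Kasumi-1, CSF1R, IFNGR1, CSF2RA and IL21R, and 1 toward SKNO-1, IL1R1. Of all genes tested, 1.12% were called at 24 h and 3.47% at 72 h. IL21R and IL1R1, the receptors for interleukins 21 and 1, were picked out after their values were seen. IL21R differed by 0.86 at 72 h (adjusted p = 0.000174). IL1R1 differed by -1.46 at 72 h (adjusted p = 0.0237), with a log2 rise of 1.47 in SKNO-1, and its call ended in 7 of 32 fits without 1 library (0.0504 to 0.0687, highest without GSK690* replicate 1 of SKNO-1). CSF2RA, the GM-CSF receptor chain for the factor that SKNO-1 was grown in, read 1.22, 1.16, 1.31 and 1.30 FPKM in Kasumi-1 controls and 2.64, 2.08, 2.39 and 2.12 FPKM with inhibitors at 72 h. In SKNO-1 it read 4.01, 3.48, 4.77 and 3.73 and 4.63, 4.48, 3.91 and 4.10 FPKM. Kasumi-1 inhibitor libraries lay above their controls and below every SKNO-1 library, and the SKNO-1 groups overlapped (difference 0.47, adjusted p = 0.0281). The call of CSF2RA ended in 10 fits without 1 library (0.0510 to 0.0841, highest without RN-1 replicate 1 of Kasumi-1). CSF2RB, the beta chain it shares with other cytokine receptors, had a line difference of 0.01 ± 0.14 at 24 h and -0.11 ± 0.14 at 72 h and was not called. Of 25 genes of STAT5 signalling and cytokine feedback, 0 were called at 24 h and 3 at 72 h, against the same 1.12% and 3.47%. The 3 were CCND2 and PIM1 toward Kasumi-1 and LIF toward SKNO-1. The call of LIF ended in 12 fits without 1 library (adjusted p = 0.0517 to 0.0981, highest without GSK690 replicate 2 of SKNO-1). CCND2, the cyclin D2 gene, rose in Kasumi-1 from 6.12 ± 0.141 to 8.31 ± 0.850 FPKM at 72 h and read 19.4 ± 2.49 and 16.7 ± 2.08 FPKM in SKNO-1 (difference 0.59, adjusted p = 0.00489).

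Of 35 proliferation genes, 34 fell in Kasumi-1 and 7 in SKNO-1 at 24 h, and 23 and 1 at 72 h. Over all genes 11.2% fell in Kasumi-1 and 3.44% in SKNO-1 at 24 h, and 12.7% and 4.16% at 72 h. The line difference was called for 1 gene at 24 h and 0 at 72 h, against 1.12% and 3.47% of all genes, with medians of -0.29 and -0.18. PCNA, the sliding clamp of DNA replication, read 143, 133, 142 and 124 FPKM in Kasumi-1 controls and 96.3, 86.4, 94.0 and 85.0 FPKM with inhibitors at 24 h, and 176, 169, 182 and 164 and 151, 139, 163 and 175 FPKM in SKNO-1. The Kasumi-1 groups did not overlap and those of SKNO-1 did (difference -0.43 ± 0.09, adjusted p = 0.0137), and the call ended in 3 of 32 fits without 1 library (0.0512 to 0.0560, highest without GSK690 replicate 2 of Kasumi-1). A threshold passed in more genes of one line is not a test of the lines against each other, and the difference itself was called for PCNA alone among the 35.

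Several genes were called at one time only. IL8, the neutrophil chemokine, rose in Kasumi-1 from 5.42, 3.21, 7.54 and 5.66 to 17.6, 13.2, 18.9 and 15.6 FPKM at 24 h. IL8 in SKNO-1 read 1.88, 2.31, 2.42 and 2.78 and 1.54, 2.46, 1.95 and 3.46 FPKM, with no separation of the groups. Its difference was 1.48 ± 0.23 at 24 h (adjusted p = 0.000859) and 0.46 ± 0.23 at 72 h (adjusted p = 0.368). HOPX, a homeodomain-only protein, is silent in SKNO-1 and went in Kasumi-1 from 2.14 ± 0.462 to 5.16 ± 0.597 FPKM at 72 h, a difference of 1.04 (adjusted p = 0.00127) after 0.12 at 24 h. BMF, a BH3-only promoter of apoptosis, differed by 0.95 at 72 h (adjusted p = 0.0173), a call that ended without GSK690* replicate 1 of Kasumi-1 (0.0592). The change of the line difference from 24 to 72 h was not called for these 3 genes in the limma fit. In all, 36 genes were called at 24 h and not at 72 h, 22 of them expressed in both lines, and 316 at 72 h and not at 24 h, 158 of them expressed in both. For comparison, 9900 of all 11890 genes tested were expressed in both lines.

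Other genes that mark this treatment or these cells were not called. GFI1 rose in both lines at both times, by log2 0.53 and 0.45 at 24 h and 0.63 and 0.50 at 72 h, with line differences of 0.08 ± 0.09 and 0.13 ± 0.09. ITGAM, the CD11b integrin chain of mature myeloid cells, rose by 1.48 in Kasumi-1 and 1.54 in SKNO-1 at 72 h, a difference of -0.07 ± 0.30. CD34, the stem cell antigen, went from 83.9 ± 15.5 to 223 ± 24.2 FPKM in Kasumi-1 and from 0.477 ± 0.189 to 3.41 ± 1.37 FPKM in SKNO-1 at 72 h. Its difference was -0.12 ± 0.31 (adjusted p = 0.918). With a pseudocount of 0.1 the difference was -1.66 for CD34 at 24 h (adjusted p = 0.0965) and -1.16 for CD34 at 72 h (adjusted p = 0.213), so its size depends on the scale. KIT and GATA2, a factor of early haematopoiesis, differed by -0.23 ± 0.15 and -0.44 ± 0.29 at 72 h. CD86, a costimulatory ligand, had differences of 0.52 and -0.36 that were not called, and the 72 h value was 0.91 with a pseudocount of 0.1 (adjusted p = 0.0327), so its direction depends on the scale. For KDM1A itself no difference could be fitted, since the files list no value for it in any Kasumi-1 DMSO library; SKNO-1 held 82.6 ± 2.37 FPKM in 3 controls and 75.6 ± 4.51 FPKM in 3 inhibitor libraries at 72 h.

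Each inhibitor was also set against its own control, RN-1 against DMSO and GSK690 against GSK690*, with no library in common. Across all genes RN-1 gave 45 called line differences at 24 h (0.379%) and 124 at 72 h (1.04%), and GSK690 gave 23 (0.193%) and 89 (0.749%). Of the 97, chosen on the mean of the pairs, 40 and 61 were called for RN-1 at 24 and 72 h, 22 and 54 for GSK690, and 17 in all 4. Their median absolute difference was 0.87 and 1.00 for RN-1 and 0.70 and 0.93 for GSK690. PI16 differed by 3.92 with RN-1 and 3.92 with GSK690 at 72 h, CLEC4A by -3.34 and -3.63, and WFDC1 by -3.73 and -3.23. The difference between the pairs was called for 0 genes at 24 h and at 72 h (limma, smallest adjusted p = 0.341 and 1.00), with 120 and 56 at an unadjusted p under 0.05. The isomer GSK690* against DMSO likewise gave 0 called line differences at either time, with 89 and 84 at an unadjusted p under 0.05. Over the 97 genes the median absolute value for the isomer was 0.18 at 24 h and 0.14 at 72 h. The sign for the isomer was that of the inhibitor difference in 83 of the 97 at 24 h and in 79 at 72 h. The same share over all genes was not computed. The isomer is also part of the control, so the absence of calls does not show that it was inert for these genes.

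**Figure D5:**
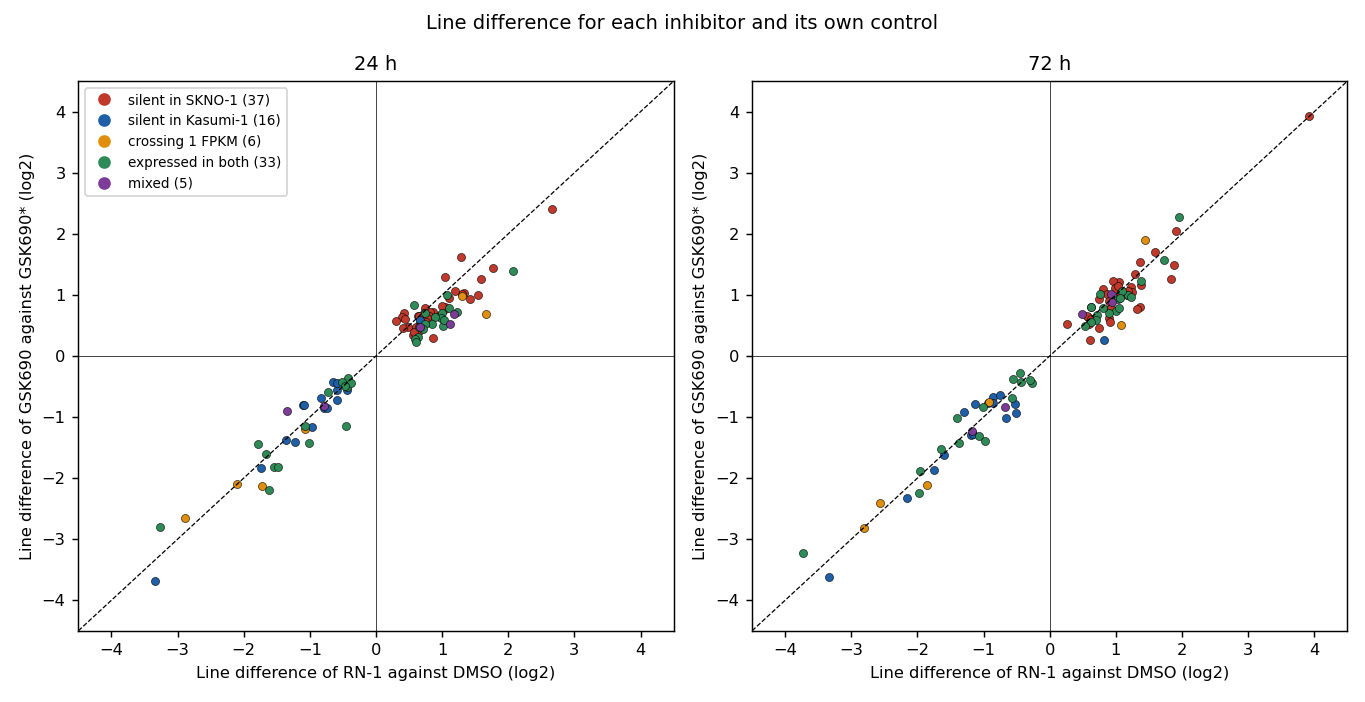
Line difference of each of the 97 genes for RN-1 against DMSO (x axis) and for GSK690 against GSK690* (y axis) at 24 h (left) and 72 h (right), log2 scale. Points lie near the dashed line of equal values; the genes were chosen on the mean of both pairs, so their shared sign is built into the choice.

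On the strength of the calls, 59 of the 97 genes were called at both times in all 32 fits that left out 1 library, 18 of them expressed in both lines. With a pseudocount of 0.1, 58 of the 97 were called, 29 of the 33 expressed in both lines and 21 of the 53 silent in 1 line. Among the genes named here, CSF1R, CTSO, FOLH1, CEP112, CAMSAP2, IER3, MS4A14 and PPP2R2B were not called at either time with that pseudocount, nor were ADAP2 at 72 h and FAM111B, GFRA3 and TNFAIP8L3 at 24 h. Of the genes called at one time only, BMF and FCER1G at 72 h and FCRLA at 24 h lost their call with it. Called in all of those fits, without the filter on low values and under both other scalings were 40 genes: 17 expressed in both, 13 silent in SKNO-1, 4 silent in Kasumi-1, 4 that crossed 1 FPKM and 2 mixed. They include PI16, FGD6, COL27A1, CLEC4A, AIM1, FCGR2B, GZMA, TSPAN7, MPZL1, LYZ, KCTD12, RGS18, WFDC1, LCP1 and ANXA2.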

How the data were processed

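Libraries were sequenced RNA from 2 cell lines with 4 agents at 2 times, 2 biological replicates each. Per the submitters' processing notes the authors used TopHat 1.4.1, Cufflinks and the hg19 build; the deposited values are FPKM, fragments per gene scaled by its length and by the library's mapped fragments. Samples were grouped by their GEO titles. FPKM were taken as log2(FPKM + 1) for genes at 1 FPKM or more in at least 2 of 32 libraries (11890 of 23073), and missing values were left missing. limma 3.58.1 in R 4.3.3 fitted 16 group means with a trended prior. The p-values of each contrast were Benjamini-Hochberg adjusted over all genes tested, with 0.05 as the threshold. A fold change on this scale understates change at low values. Without read counts the depth and the counting error are unknown, and the spread between replicates sets the precision.

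The genes followed and the gene lists were chosen with earlier results of these data known. Named are up to 7 genes per expression class and direction with the largest smaller difference of the 2 times, list members called, genes moving in opposite directions, and 17 genes followed whatever their values. Alternatives were another pseudocount, no filter, other scalings, other controls, single inhibitor pairs, a replicate block, each time alone and each library left out. SKNO-1 at 24 h from the libraries of one replicate number alone, and the contrast of the inhibitor pairs, were added after seeing the data. On simulated data with 200 genes changed by 1 on the log2 scale, 94.0% were recovered at 24 h and 92.5% at 72 h. False calls were 15 and 10 among 11882 genes. The simulated noise was independent between libraries, while same-numbered real libraries of a line and time deviated together. These rates may therefore not carry over to the real data. For 1 of 9 genes with opposite directions in the lines, and for 1 gene called at 72 h only, values are not reported here.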

Additional observations from a re-analysis of the deposited data

Results flagged for a closer look

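The comparison itself sets the response of one line against that of the other, so each call is a difference between groups. It was called for 133 genes at 24 h, 413 at 72 h and 97 at both times with the same sign (limma, adjusted p under 0.05). At 72 h these 8 genes moved in opposite directions in the lines, each past the threshold in each line and in the difference. The differences of Kasumi-1 minus SKNO-1 at 72 h were 0.77 for TYROBP, -3.48 for WFDC1, 0.59 for RIPK2, 0.85 for VAT1, 0.44 for TBC1D15, -0.93 for ARHGAP26, 0.54 for CD300LF and 0.63 for CCPG1.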

How the results depend on the processing

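The counts refer to genes called at 24 h (133), at 72 h (413), at both times with the same sign (97), to those of the 97 silent in 1 line (53) or expressed in both (33), and to genes whose difference changed with time (0). Leaving out each of the 32 libraries gave 81 to 187 genes at 24 h, 313 to 483 at 72 h and 67 to 134 at both, with 37 to 70 silent in 1 line, 20 to 50 expressed in both and 0 to 2 changing with time. The change with time was called for 1 gene without GSK690 72 h replicate 2, GSK690* 72 h replicate 1, RN-1 24 h replicate 1 or RN-1 24 h replicate 2 of Kasumi-1, and for 2 without RN-1 72 h replicate 2 of Kasumi-1, GSK690 24 h replicate 2 or RN-1 24 h replicate 2 of SKNO-1. With 8 groups of 4, 201 genes were called at 24 h, 50 expressed in both and 2 changing with time. With DMSO alone as control there were 79, 246 and 62, 19 of them expressed in both. The pair of GSK690 and GSK690* gave 23, 89 and 19, with 11 silent and 5 expressed in both. RN-1 and DMSO gave 45, 124 and 34, with 20 and 9. Each pair sets fewer libraries against each other, while the spread still comes from all 32. SKNO-1 at 24 h from its replicate 1 libraries alone gave 51 genes expressed in both. From the replicate 2 libraries alone it gave 51 at 24 h and 48 at both, 30 silent and 12 expressed in both, and 1 changing with time. With a pseudocount of 0.1, 24 genes silent in 1 line were called at both times, 21 of them among the 53, and quantile normalization gave 53 expressed in both; the cause was not tested.

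Same-numbered libraries of a line and time deviated together with r from 0.0431 to 0.697, and the labels do not say that the numbers mark a shared batch. With a replicate block 521 genes were called at 24 h, 1006 at 72 h and 330 at both, 145 silent in 1 line, 152 expressed in both and 12 changing with time, and all 97 genes were among the 330. Named genes kept direction and side of the threshold in 5842 of the values recomputed, lost the call in 467 and gained it in 36. The sign turned in 3, all with a pseudocount of 0.1: CD86 at 72 h (0.91, adjusted p = 0.0327) and SERPINB8 at 24 h (-0.10) and 72 h (-0.74). Line, medium and, at the later time, possibly duration cannot be told apart, and 2 libraries a group limit what a single gene can show.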
